A study of Mus musculus with 4 samples.

Results

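The spliceosomal genes described here encode the Sm and LSm proteins, the proteins particular to single small nuclear ribonucleoproteins (snRNPs), and the SF3a and SF3b complexes. They were chosen by symbol: every symbol that starts with Snrp or Snrnp, the numbered Lsm genes, Sf3a1 to Sf3a3 and Sf3b1 to Sf3b6. This gave 41 genes of the 13831 symbols in the data, and all 41 had a mouse gene identifier. Together they held 15236 reads, and 40 of the 41 had reads in all 4 libraries, while Snrnp35 had none in KO 2. All 41 are called spliceosomal genes here for short, although some LSm genes act outside the spliceosome. Among these, Lsm10 and Lsm11 belong to the U7 snRNP, which processes histone messages, and Lsm1 and Lsm14a act in the cytoplasm.

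The samples were J1 mouse embryonic stem cells grown in fetal calf serum with LIF, untreated, of 2 genotypes: wild-type cells (WT) and cells with a knockout (KO) of Mov10, which encodes an RNA helicase, with 2 libraries of each. Where 4 values are listed for a gene, they stand in the order WT 1, WT 2, KO 1, KO 2, and where they are listed by genotype, in the order of the library numbers. How the Mov10 gene was disrupted, and whether the KO cells are 1 clone, is not given in the sources used here, nor is whether the 2 libraries of a genotype came from separate cultures, so p-values measure the spread between these libraries, which may be technical. RNA selected on oligo(dT) beads was sequenced directly on nanopores, so that each read is 1 RNA molecule with an estimated poly(A) tail length in nucleotides (nt), and the design compares tails between the genotypes.

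Splicing removes introns through snRNPs, particles built of a small nuclear RNA and proteins. The Sm proteins close into a ring around the U1, U2, U4 and U5 RNAs, while LSm proteins form a related ring on U6 RNA in the nucleus and another ring on messenger RNAs that have lost their tails in the cytoplasm. Each snRNP adds proteins of its own, and SF3a and SF3b join the U2 snRNP where it meets the branch point of the intron. Stem cells divide quickly and make large amounts of RNA.

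The libraries held from 351133 to 683239 reads with a tail length above 0. Mov10 (ENSMUSG00000002227.15) had 26 and 14 reads in WT 1 and WT 2 against 0 and 1 in KO 1 and KO 2, where 3 counts would be 4.39 and 6.98 reads per 1000000 reads (RPM). All 8 stem cell markers examined had reads in every library. They summed to 9280 and 9438 RPM in WT against 8094 and 7139 RPM in KO, so the sum was lower in the KO libraries. Dppa5a was the largest part of each sum, with 4951 and 5625 RPM in WT against 4973 and 4058 RPM in KO. Both KO libraries lay below both WT libraries for Pou5f1, Zfp42 and Tdgf1. The genotypes overlapped for Sox2, Nanog, Esrrb, Dppa5a and Utf1. The part of these marker levels in the results was not tested. Of 6 fibroblast feeder markers only Thy1 was seen, at 5.70 to 14.0 RPM, while Col1a1, Col1a2, Col3a1, Dcn and Postn were at 0 reads, and 7 markers of differentiated cells summed to at most 4.55 RPM. Over all reads, median tails were shorter in WT 1 (97.3 nt) and KO 2 (98.1 nt) than in WT 2 (105.6 nt) and KO 1 (105.8 nt), so each genotype has 1 library with shorter and 1 with longer tails.

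The 41 genes took 0.746, 0.834, 0.813 and 0.808% of all reads, by library. The KO libraries lay between the WT libraries. The WT mean was 0.790% ± 0.0618 (SD, n = 2) and the KO mean 0.810% ± 0.00317 (SD, n = 2), and the difference of 0.0202 percentage points was smaller than the spread between replicates. The 95% Wilson intervals, which cover counting error only, ran from 0.721 to 0.772% in WT 1 and from 0.804 to 0.864% in WT 2. The 8 Sm ring genes carried the most, at 0.399% ± 0.0381 (SD, n = 2) of all WT reads and 0.411% ± 0.00908 (SD, n = 2) of all KO reads. The 13 LSm genes followed with 0.150% ± 0.0107 (SD, n = 2) of WT reads and 0.154% ± 0.00251 (SD, n = 2) of KO reads.

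Tails of these messages were somewhat longer than those of other genes in every library. Over pooled reads the medians were 104, 116, 114 and 107 nt. Reads of all other genes had medians of 97.3, 105.5, 105.8 and 98.0 nt in the same order. The gaps were 7, 10.2, 7.93 and 9.21 nt, so the KO values again lay between the WT values. Tails of 150 nt or more made up 22.8, 27.5, 25.0 and 22.0% of the reads on these genes, against 18.8, 23.9, 23.7 and 19.5% elsewhere. Short tails under 30 nt made up 2.80, 2.19, 1.46 and 2.53%, above the 2.35% of other genes in WT 1 and below the 3.03, 1.55 and 2.76% of the other libraries. Pooled reads are weighted towards the most abundant genes, and no test was made of these gaps.

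**Figure D1:**
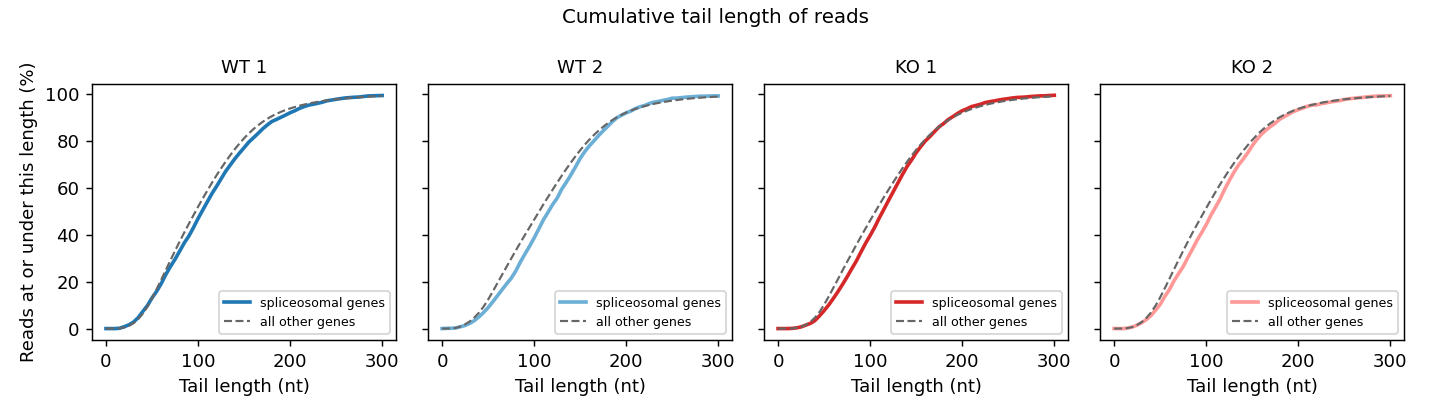
Cumulative share of reads (percent, vertical axis) by tail length (nt, horizontal axis) in each library, for the 41 spliceosomal genes (solid) and all other genes (dashed). In each panel the solid curve lies to the right of the dashed one at the median, by 7 to 10.2 nt.

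Medians of single genes were also compared. Of the 41 genes, 29 had at least 20 reads in each library, the minimum for a gene's median tail to be compared, and the other 12 fell short. The median over these 29 gene medians was 107, 113, 114 and 106 nt. Over all 1935 genes that met the same minimum it was 102, 109, 109.97 and 102 nt. Between 17 and 22 of the 29 lay above the median of all genes, and none lay outside the central 95% of genes in any library. Averaged over the 4 libraries, the shortest tails belonged to Snrnp25 (90.0 nt), Sf3a1 (95.3 nt) and Snrpb (99.8 nt), and the longest to Lsm2 (128 nt), Sf3b1 (125 nt) and Snrpd3 (123 nt).

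The Sm ring genes encode the small proteins shared by the spliceosomal snRNPs. Snrpe (SmE) had median tails of 102, 114, 115 and 106 nt. Snrpd2 (SmD2) had 92.0, 120.2, 113 and 104 nt, and Snrpg (SmG) had 99.6, 129.5, 121 and 117 nt. In all of these genes WT 1 was the lowest library, and both KO libraries lay between WT 1 and WT 2 except KO 1 for Snrpe. Snrpf (SmF) had 99.96, 109, 110.1 and 94.2 nt, the same order of libraries as the medians over all genes tested. Snrpd1 (SmD1) was the 1 Sm gene whose genotypes did not overlap, with 116.9 nt in WT 1 and 117.0 nt in WT 2 against 111 nt in KO 1 and 114 nt in KO 2, a difference of -0.06 on the log2 scale with a standard error of 0.14. Over the 7 Sm genes compared, the WT median averaged 108 nt ± 12.05 (SD, n = 2) and the KO median 109 nt ± 4.34 (SD, n = 2).

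The LSm genes had longer tails than the Sm genes in each library, by the median over genes: 109.5, 119, 123 and 108 nt against 99.96, 117, 113 and 106 nt. Over pooled reads the LSm genes were longer in WT 1 (111.0 against 100.5 nt) and KO 2 (109.8 against 107.2 nt). They were shorter in WT 2 (118.0 against 119.4 nt) and KO 1 (113.4 against 114.5 nt). The contrast was not tested. Lsm2, a member of both LSm rings, had 131, 113, 142 and 127 nt. Lsm7 and Lsm4, also in both rings, had 107, 113, 104 and 114 nt, and 94.5, 108, 111 and 107 nt. For each of these genes the genotypes overlapped. Lsm8, which closes the nuclear ring on U6 RNA, had 112 and 139 nt in WT against 125 and 98.8 nt in KO. Lsm1, its counterpart in the cytoplasmic ring, had 108 and 133 nt in WT against 122 and 102 nt in KO. Both followed the order of the libraries over all genes, high in WT 2 and KO 1 and low in WT 1 and KO 2.

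Among genes of single snRNPs, Snrpc (U1-C) had 111, 122, 114 and 108 nt, and Snrpa (U1-A) had 103, 112, 113 and 95.5 nt. The U2 proteins went the other way between the WT libraries. Snrpa1 (U2-A′) had 117 nt in WT 1 and 88.5 nt in WT 2 against 104 and 102 nt in KO, and Snrpb2 (U2-B″) had 106, 102, 101 and 111 nt. Snrnp40, a WD-repeat protein of U5, had 97.8 and 97.9 nt in WT against 117 and 104 nt in KO, with no overlap. Snrnp200, the U5 helicase that unwinds U4 from U6, had 103, 117, 128 and 105 nt. Snrnp25, a protein of the minor U11/U12 snRNP, had the shortest tails in WT 1 (82.5 nt) and KO 2 (84.4 nt), with 92.6 nt in WT 2 and 101 nt in KO 1.

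The SF3 complexes bind U2 snRNP to the intron. The 2 SF3a genes with enough reads had tails shorter than the median of the 41 genes. Sf3a1 had 89.5 and 89.9 nt in WT against 99.4 and 102 nt in KO. Sf3a3 had 102.4 and 108 nt in WT against 94.4 and 102.0 nt in KO. For both the genotypes did not overlap, in opposite directions, but for Sf3a3 WT 1 and KO 2 were almost equal. The 5 SF3b genes had a median of 115 nt ± 0.986 (SD, n = 2) among WT and 114 nt ± 4.98 (SD, n = 2) among KO libraries. Sf3b1, the large scaffold that grips the branch point, had 114, 134, 123 and 129 nt. Sf3b5, a very small subunit, had 113 and 115 nt in WT against 107 and 106 nt in KO, with no overlap.

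**Figure D2:**
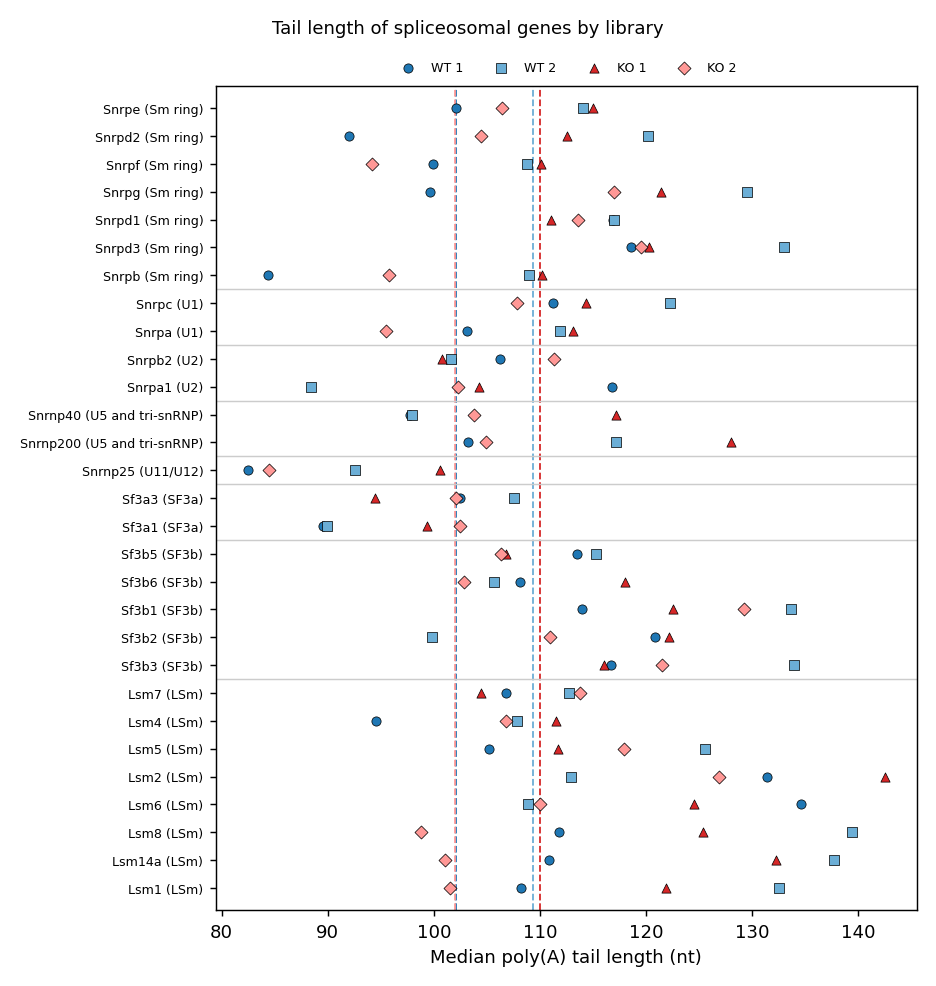
Median poly(A) tail length (nt, horizontal axis) of the 29 spliceosomal genes with at least 20 reads in each library, with 1 point per library (WT 1 circles, WT 2 squares, KO 1 triangles, KO 2 diamonds) and dashed lines in the same colours at the median of all 1935 genes. Most genes lie between 90 and 140 nt, and the libraries of a genotype are often further apart than the genotypes.

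The comparison of tail length between genotypes made no call on these genes. With limma on the log2 median tail of 1935 genes, 0% of all genes and 0 of the 29 passed a Benjamini-Hochberg adjusted p of 0.05. At an unadjusted p under 0.05 there were 0 of the 29, against 2.33% of all genes. The log2 differences, KO minus WT, ran from -0.17 for Lsm8 to 0.17 for Snrnp40, around a median of 0.02, and 15 of 29 were above 0 (51.8% of all genes, whose median was 0.01). Both KO libraries lay above both WT libraries for Sf3a1 and Snrnp40, 2 of 29 where 14.7% of all genes did so, and below for Sf3a3, Sf3b5 and Snrpd1, 3 of 29 where 11.8% did. The smallest unadjusted p-values among the 29 were those of Snrnp40, Lsm8 and Sf3a1, and limma's adjusted p was 0.9998 for each. Their log2 differences were 0.17, -0.17 and 0.17 with standard errors of 0.18, 0.18 and 0.20. The median standard error over the 29 was 0.16. The median log2 difference of the 29 turned negative when WT 1 (-0.09) or KO 1 (-0.04) was left out, and was 0.03 and 0.07 when WT 2 or KO 2 was. Lsm8 had 0.04 when the mean of log2 lengths replaced the median, 0.01 without KO 2, -0.01 without WT 2, and -0.34 and -0.33 without KO 1 or WT 1. With the mean of log2 lengths Snrnp40 had 0.06 and Sf3a1 0.08, and Snrnp40 had 0.07 with the transcript as unit, 0.08 without KO 1 and 0.26 without KO 2.

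The tails of the genes under the minimum were read with more error. Lsm3, in both LSm rings, had 159.8 and 127 nt in WT against 99.1 and 91.1 nt in KO, on 17, 37, 71 and 69 reads. Lsm10, a part of the U7 snRNP that processes histone messages, had 132 and 143 nt in WT against 73.8 and 78.1 nt in KO, on 13, 11, 17 and 12 reads. In both genes the WT libraries lay above the KO libraries. The exact 95% intervals of the median, from ordered reads, were wide: 114 to 197 nt in WT 1 and 77.6 to 120.1 nt in KO 2 for Lsm3, and 39.0 to 194 nt in WT 1 and 39.3 to 110.45 nt in KO 2 for Lsm10. With a minimum of 10 reads in each library, limma's log2 difference was -0.59 (SE 0.19) for Lsm3 and -0.85 (SE 0.32) for Lsm10, with unadjusted p-values of 0.00205 and 0.00689 and an adjusted p of 0.997 for both over 3344 genes; with at least 20 reads neither was tested. Lsm3 and Lsm10 were singled out after their values were seen. At that minimum of 10 reads, limma gave an unadjusted p under 0.05 to 2 of 35 spliceosomal genes and 127 of 3344 genes. The other genes tested only at that minimum had 0.33 (Lsm12), -0.12 (Sf3b4), -0.06 (Snrpn) and -0.03 (Snrnp27). Lsm11, the partner of Lsm10 in the U7 ring, had 51.2 and 22.7 nt in WT against 95.2 and 77.2 nt in KO on only 7, 3, 13 and 12 reads.

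The spread of tails within a gene was compared as the ratio of the upper to the lower quartile of tail length. Most genes had a ratio near 2. Snrnp200 had 3.04 in WT 1 and 2.52 in WT 2 against 1.81 in KO 1 and 1.94 in KO 2. Its lower quartile was 49.1 and 59.85 nt in WT against 88.1 and 81.6 nt in KO. These quartiles are imprecise, as they rest on 33 and 37 reads in WT and on 76 and 43 in KO. The log2 difference in the ratio of Snrnp200 was -0.56 with a standard error of 0.20. For this gene limma gave an unadjusted p of 0.00714 and an adjusted p of 0.985, so it did not pass. It was the only one of the 29 genes with an unadjusted p under 0.05 (3.88% of all genes), and 0 of 29 passed the adjusted threshold (0% of all genes). Sf3a1 had 2.55 and 2.74 in WT against 2.03 and 2.16 in KO, and Lsm4 had 2.21 and 2.09 against 1.80 and 1.91, log2 differences of -0.34 (SE 0.21) and -0.21 (SE 0.13), with an adjusted p of 0.985 for both by limma. Both KO libraries lay below both WT libraries in 9 of the 29 genes, where 19.02% of all genes did so, and above in 5 of 29, where 12.6% did. The median log2 difference of the 29 was -0.06, beside -0.02 over all genes, and 11 of 29 were above 0 (45.3% of all genes). WT 1 and KO 1 each decided the sign of that median, which was 0.02 without WT 1 and 0.01 without KO 1.

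**Figure D3:**
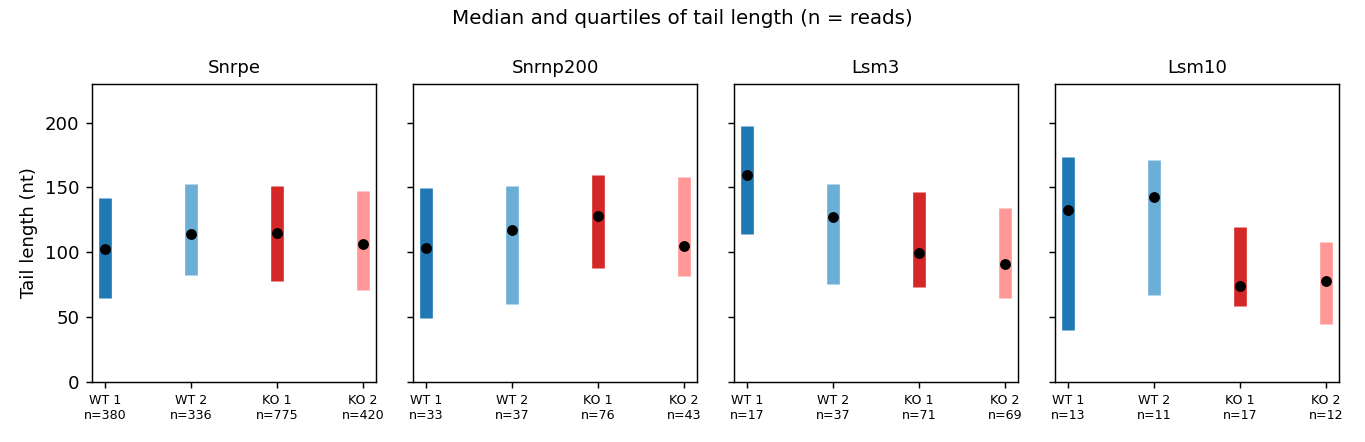
Median (point) and lower to upper quartile (bar) of tail length in nt for Snrpe, Snrnp200, Lsm3 and Lsm10 in each library, with the number of reads under each bar. The lower quartile of Snrnp200 is 49.1 and 59.85 nt in WT, on 33 and 37 reads, against 88.1 and 81.6 nt in KO, on 76 and 43 reads. The medians of Lsm3 and Lsm10 are lower in both KO libraries, on few reads.

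The number of reads per gene was used as a measure of the amount of each message. The RNA was selected on oligo(dT) beads, so messages with very short tails may be undercounted, which was not tested. Levels are given as scaled RPM, after median-of-ratios scaling between libraries. A read is 1 molecule, so levels were not divided by length, and incomplete reads of long messages may be undercounted. In bulk RNA, fewer cells with a message and less message per cell cannot be told apart. Of the 41 genes, 37 had a mean of at least 10 reads and were tested; Lsm11, Sf3a2, Snrnp35 and Snrnp48 were not. Among all 4815 genes tested, 31 of these 37 in WT 1, KO 1 and KO 2, and 30 in WT 2, lay above the median level of a gene.

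By mean level over the libraries, the 6 most abundant of these genes were Sm ring genes, while Snrpb and Snrpn were lower. Snrpe had 929 and 905 scaled RPM in WT 1 and WT 2 and 1072 and 898 in KO 1 and KO 2. Snrpd2 had 868, 1005, 892 and 845, and Snrpf had 511, 519.9, 474 and 494. The genotypes differed by less than 0.11 on the log2 scale in each of these genes, which is under the standard error of 0.23 to 0.24. Snrpd1 had 335, 439, 403 and 394 and Snrpg had 472, 366, 393 and 421. Snrpb, which encodes SmB, had 439.9 in WT 1, apart from 248 in WT 2, 220.0 in KO 1 and 255 in KO 2. Its paralog Snrpn, the imprinted gene of SmN, had 110.0, 51.2, 73.3 and 128, high in WT 1 and KO 2.

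The U1 genes showed the same separation of libraries. Snrpc had 435 scaled RPM in WT 1 against 221 in WT 2, 237 in KO 1 and 282 in KO 2. Snrpa had 144, 78.1, 101 and 171, and Snrnp70 (U1-70K) had 29.3, 21.6, 19.4 and 38.5, high in WT 1 and KO 2 as Snrpn was. The U2 gene Snrpa1 had 108, 202, 172 and 149.7, lowest in WT 1, while Snrpb2 had 198, 221, 208 and 195. In each of these genes the libraries of 1 genotype differed by more than the genotype means did. Snrnp200 had 80.7, 99.7, 105 and 92.0, and Snrnp40 had 122 and 119 in WT against 104 in KO 1 and its lowest level, 36 reads, in KO 2. Snrnp27, a tri-snRNP protein, had 41.5, 45.8, 51.2 and 27.8. Snrnp25 had 119.8, 159, 141 and 130.5, whereas the other U11/U12 genes were low, Snrnp48 with 31.8, 16.2, 12.5 and 15.0 and Snrnp35 with 2, 3, 2 and 0 reads.

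In SF3a, Sf3a3 had 147 and 113 scaled RPM in WT against 78.9 and 89.8 in KO, and Sf3a1 had 78.2 and 67.4 against 87.2 and 94.1. The genotypes did not overlap in either gene, and the directions were opposite, as they were for tail length, where those of Sf3a3 were only narrowly apart. Sf3a2 had only 2 to 4 reads in a library. In SF3b, Sf3b5 had 286 and 256 in WT against 342 and 344 in KO, and Sf3b6, the branch point protein p14, had 301 and 294 against 239 and 218. Sf3b1 had 122, 194, 152 and 139, Sf3b2 had 115, 129, 101 and 113, and Sf3b3 had 53.8, 91.6, 74.7 and 83.4.

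Among the LSm genes, Lsm3 had 41.5 scaled RPM in WT 1 and 99.7 in WT 2 against 98.2 in KO 1 and 147.6 in KO 2, so WT 2 and KO 1 overlapped. Lsm7 had 298 and 302 in WT against 331 and 308 in KO. Lsm4 had 281 and 272 against 245 and 205, and Lsm5 had 276 and 234 against 208 and 212. The genotypes did not overlap in these last 3 genes, Lsm7 being higher and the others lower in KO. Lsm8 had 147 and 102 against 98.2 and 74.9, and Lsm1 had 73.3 and 70.0 against 58.1 and 55.6. Lsm2 had 147, 132, 115 and 133, and Lsm6 had 80.7, 108, 126 and 89.8. Lsm14a, a translational repressor of cytoplasmic granules, had 92.9, 78.1, 83.0 and 66.3.

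**Figure D4:**
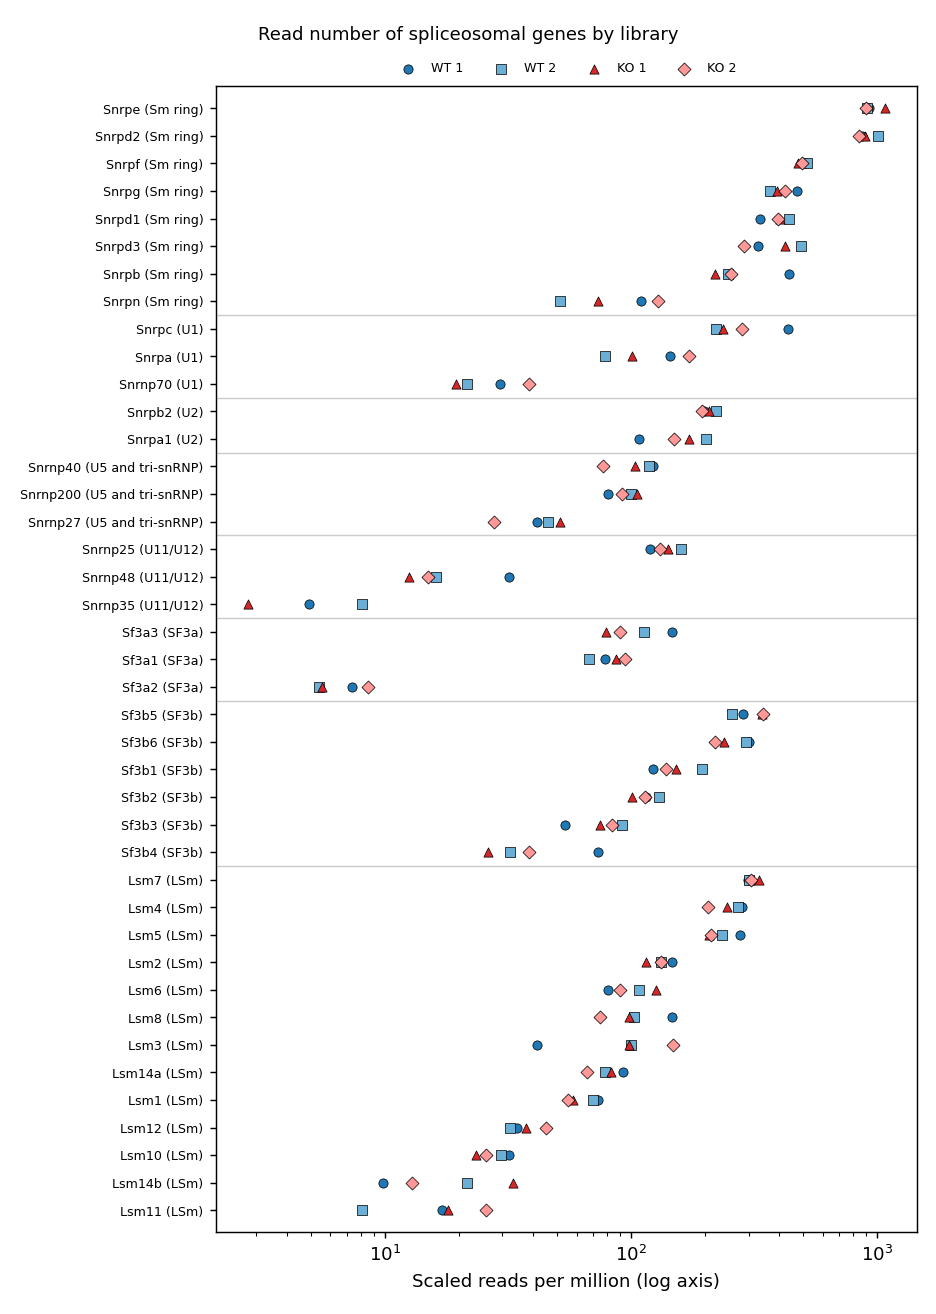
Scaled RPM (log axis) of all 41 spliceosomal genes, with 1 point per library (WT 1 circles, WT 2 squares, KO 1 triangles, KO 2 diamonds) and Snrnp35 in KO 2, at 0 reads, not drawn. Snrpb and Snrpc have 1 high library, WT 1, and Snrpn, Snrpa and Snrnp70 are higher in WT 1 and KO 2 than in WT 2 and KO 1.

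The comparison of read number between genotypes made no call on these genes. By limma's voom, 0 of the 37 and 0% of the 4815 genes tested passed an adjusted p of 0.05, and 1 of the 37, Lsm3, had an unadjusted p under 0.05, where 10.3% of all genes did; limma-trend on log2 values gave 0 of the 37 on either count. Mov10, the gene knocked out, was itself not called by voom. Its log2 difference was -5.09, on few reads, with an adjusted p of 0.0553 by limma's voom. The absence of calls therefore does not exclude changes in read number. The log2 differences of the spliceosomal genes, KO minus WT, ran from -0.67 for Sf3b4 to 0.88 for Lsm3 and were under 0.5 in size in 32 of 37 genes. The median was -0.07 beside -0.01 over all genes, and 15 of 37 were above 0, beside 49.4% of all genes. Both KO libraries lay below both WT libraries for 10 of the 37, of which 5 were LSm genes (Lsm1, Lsm4, Lsm5, Lsm8 and Lsm10) and the others Sf3a3, Sf3b2, Sf3b6, Snrnp40 and Snrpf, where 20.5% of all genes did so. They lay above for Lsm7, Lsm12, Sf3a1 and Sf3b5, 4 of 37, where 20.04% of all genes did. Scaling by total reads shifted the median of all genes to 0.11 and that of these genes to 0.05.

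Before adjustment, p was smallest for Lsm3, Sf3a3 and Snrpb. Lsm3 had a log2 difference of 0.88 (SE 0.38, limma adjusted p = 0.452), Sf3a3 -0.63 (SE 0.30, adjusted p = 0.498) and Snrpb -0.49 (SE 0.29, adjusted p = 0.577). None passed, and the adjusted p over the alternatives ran from 0.0135 to 0.998 for Lsm3, from 0.111 to 0.998 for Sf3a3 and from 0.0105 to 0.998 for Snrpb. With a library left out, the log2 difference of each of these genes moved furthest without WT 1 or without WT 2. That of Sf3a3 moved least and ran from -0.81 to -0.43. Lsm3 also moved when a KO library was left out, up without KO 1 and down to 0.61 without KO 2. Without WT 1, Lsm3 had 0.24 (limma adjusted p = 0.897) and Snrpb -0.07 (adjusted p = 0.973). Without WT 2, limma's voom called 367 genes, among them Snrpb (log2 difference -0.90, adjusted p = 0.0105), Lsm3 (1.47, 0.0135), Sf3b4 (-1.24, 0.0351) and Snrpc (-0.76, 0.0395). In these 4 genes WT 1 stood apart from WT 2, as the values of Snrpb, Snrpc and Lsm3 above show and as for Sf3b4, with 73.3 in WT 1 against 32.3 in WT 2, 26.3 in KO 1 and 38.5 in KO 2. Sf3b4 and Snrpc were named after their values were seen.

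**Figure D5:**
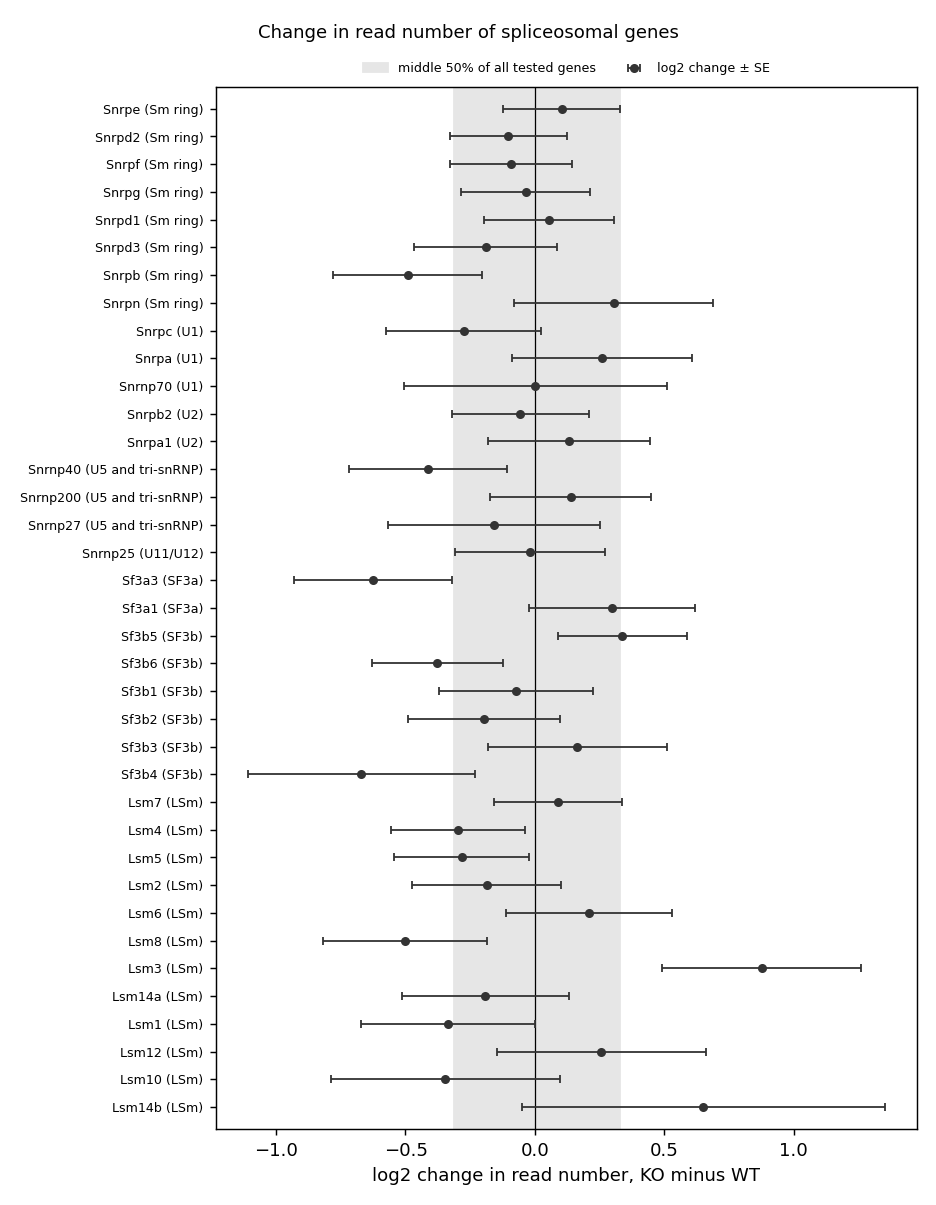
Log2 difference in read number, KO minus WT (horizontal axis), of the 37 spliceosomal genes tested, as points with bars of 1 standard error from limma's voom. The grey band, from -0.31 to 0.33, holds the middle 50% of all 4815 genes; the points run from -0.67 (Sf3b4) to 0.88 (Lsm3), and none passed an adjusted p of 0.05.

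Other genes of the pathway were read from lists. A list of 20 genes for the assembly of snRNPs holds the SMN complex, which loads Sm proteins onto small nuclear RNA, the arginine methylase that prepares them, and factors that mature the particle. All 20 had reads; for tail length 8 and for read number 16 were tested, and limma called 0 in either direction in both. The median tail of the 8 was 95.9, 98.1, 100.1 and 90.4 nt, below the median of the Sm, LSm and snRNP genes in each library. Smn1, the core of the SMN complex, had 103 and 137 nt in WT against 105 and 89.4 nt in KO, a log2 difference of -0.30 (SE 0.20, limma adjusted p = 0.9998). Prmt5, the methylase, had 111 and 88.5 nt against 85.3 and 79.2 nt, and Wdr77, its partner, had 93.3 and 95.1 nt against 106 and 101 nt. For read number the median log2 difference of the 16 was 0.13, with 10 of 16 above 0, where 49.4% of all genes were. At an unadjusted p under 0.05 there was 1 of 16, where 10.3% of all genes passed: Larp7 (-0.97, limma adjusted p = 0.418), a protein that guides U6 modification.

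A list of 56 further spliceosome proteins, from the U5 core to the exon junction complex, had 55 genes with reads. For tail length 30 were tested and 0 called, with a median log2 difference of 0.00, 15 of 30 above 0 (51.8% of all genes) and 0 at an unadjusted p under 0.05 (2.33% of all genes). For read number 46 were tested and 0 called, with a median of -0.08, 18 of 46 above 0 (49.4% of all genes) and 4 of 46 at an unadjusted p under 0.05 (10.3% of all genes). The genes with the smallest p were Eif4a3 of the exon junction complex (0.88, limma adjusted p = 0.271), the helicase Dhx16 (-0.79, 0.275) and the U5 protein Txnl4a (-0.78, 0.322). Eif4a3 had 127 and 162 scaled RPM in WT against 227 and 314 in KO, higher with no overlap, as in 20.04% of all genes. Dhx16 had 367 and 420 in WT against 259 and 195 in KO, and Txnl4a had 337 and 232 against 145 and 186. Both were lower in KO with no overlap, as in 20.5% of all genes. For tail spread 0 of 8 and 0 of 30 were called, and 0 and 2 had an unadjusted p under 0.05 (3.88% of all genes); the smallest belonged to Prpf8, the core of U5, with a log2 difference of 0.45 (adjusted p = 0.985).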

How the data were processed

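Direct RNA libraries, 2 WT and 2 KO, were sequenced on R9 nanopore flow cells, per the labels' protocols. The deposited table gives for each read a transcript, a symbol, a library and the authors' estimate of tail length in nt, with no normalization and no column of counts. The submitters' processing notes name minimap2 2.20; the basecaller, tail length tool, genome build and read filters are not given in the sources used here, and no coordinates are printed. Of 1903922 reads, 3 with a length of 0 were left out. Symbols were used as deposited. Of the transcripts with reads of these genes, 4 also carried other symbols. The transcript with all 1768 reads of Snrpd2 had 1 read of Gm10120, and that with 172 reads of Lsm2 had 1 of Zranb1. Snrpd3 had 1 read on a transcript with 351 of Stip1, and Lsm14a had 1 on a transcript with 8111 of Rps15. Reads of near-identical pseudogenes cannot be told apart.

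Tail length (log2 median, at least 20 reads in each library) and tail spread were tested with limma 3.58.1 in R 4.3.3, with the variance trend on log2 mean read number. Read number was tested with voom (0.5 reads added, median-of-ratios scaling, mean of at least 10 reads). All were fitted over all genes with Benjamini-Hochberg adjustment and a threshold of 0.05. Tables were handled in Python 3.11.15 (pandas 2.3.3). In simulated data the tests recovered 55.3% of planted log2 tail changes of 0.5 and 100% of changes of 1 (1935 genes), 47.4 and 95.2% for tail spread, and 6.38% of read number changes of 1 and 71.7% of changes of 2 (4815 genes). Changes were planted in 200 genes, and 7, 6 and 4 unchanged genes were called. Tail noise was normal, with a variance set by read number alone, and read numbers had 1 dispersion of 0.05. These rates may therefore not hold in the real data. The genes and lists were chosen with earlier results of these data known. Genes were named as follows: in each group of the complex the 3 genes with the most reads (5 for Sm, LSm and SF3b), in each test the 3 with the smallest p, Mov10, and from the pathway lists the 3 genes with the smallest p in each test; the others, among them Snrpn, Lsm1, Lsm10, Lsm11, Lsm14a and Sf3b4, were chosen after their values were seen. Alternatives changed the summary, read minimum, centring, unit, scaling, model and replicate block, or left out each library.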

Additional observations from a re-analysis of the deposited data

How the results depend on the processing

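The number of genes called over the whole table depended on the setting. For read number it was 0 with all 4 libraries, 96 with no filter on read number, 7 with scaling by total reads, 66 with the replicate number as a block, and from 0 to 367 with a library left out (50 without WT 1, 367 without WT 2), where the lone library of a genotype is assumed to vary like the others; for tail length it was 0, 1 with a minimum of 10 reads and from 0 to 4 with a library left out; for tail spread it was 0 and from 0 to 7. None of these calls was on a spliceosomal gene except 4 for read number without WT 2. The replicate block called 0 genes for tail length and for tail spread, and 0 spliceosomal genes in any test. Deviations of same-numbered libraries correlated by 0.0135 for tail length, 0.00453 for tail spread and 0.0161 for read number. Counting error in single genes also lowers such correlations, so whether libraries were paired by number cannot be told. The median log2 difference of the spliceosomal genes ranged from -0.0853 to 0.0744 for tail length, from -0.108 to -0.0627 for read number and from -0.110 to 0.0185 for tail spread with a library left out, and was 0.0487 for read number with scaling by total reads; the difference in their share of reads ranged from -0.0235 to 0.0639 percentage points. With the mean of log2 lengths Lsm8 had 0.0441 for tail length, and from -0.338 to 0.00563 with a library left out. The cause was not tested. Depth limits the precision of tail lengths: 15 of the 41 genes had at least 50 reads in each library.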

Other observations

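The deposited table assigns each symbol to at most 1 class by Mov10 binding and m6A, a methylated adenosine in messenger RNA; how the classes were made is not given in the sources used here. Of the 41 spliceosomal genes, 20 were targets without m6A, 3 targets with m6A (Lsm14a, Sf3b3 and Snrnp70), 11 non-targets and 7 in no class, the last including Snrpe, Snrpd1, Snrpd2, Snrpd3 and Sf3b1. The median log2 difference in tail length was 0.03 over the 14 targets without m6A that had enough reads and 0.07 over the 7 non-targets, and for read number it was -0.12 over 18 and -0.17 over 10 genes. Lsm14a and Sf3b3 had -0.10 and -0.07 for tail length.

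Alternative transcripts were compared for Lsm4, Sf3b2 and Snrnp40, each with 2 transcripts of at least 10 reads in every library. The 2 transcripts of Lsm4 had median tails of 104, 102, 111 and 103 nt and of 90.3, 116, 119.9 and 106 nt, in the order WT 1, WT 2, KO 1, KO 2. Those of Snrnp40 had 96.5, 94.1, 131 and 93.0 nt and 97.9, 112, 112 and 108 nt, so KO 1 was highest for both and the non-overlap of the gene as a whole was seen in neither. Those of Sf3b2 had 122, 99.8, 120.3 and 116 nt and 98.4, 101, 132 and 108 nt.

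Across the 29 genes with enough reads, Spearman's rho between read number and median tail was -0.267, -0.000985, -0.235 and 0.209 by library in the same order, so its sign differed between libraries. These points share a library and are not independent.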
